A study of Cucumis melo with 18 samples.

Results

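A total of 143 of the 22394 melon genes in the counts were at least 6 times higher in young “B-6” fruit than in every other line and stage that was sequenced. Their levels are CPM, the count of a gene divided by the total of its library and multiplied by 1000000. The genes were chosen by these levels. A gene was included when its mean over the 3 libraries of “1_6” (line “B-6”, 10 days after pollination, DAP) was at least 10 CPM and at least 6 times the mean of each of the other 5 groups. Every “1_6” library also had to lie above each of the other 15 libraries. The 143 genes were 0.639% of all genes and 1.36% of the 10531 genes with a mean of at least 10 CPM in “1_6”.

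RNA was sequenced from fruits of 2 inbred lines of melon, “B-6”, whose fruits turn from green to white, and “B-14”, whose fruits turn from green to orange. Fruits were harvested at 10, 30 and 45 DAP, which gave the groups “1_6”, “3_6” and “4_6” of “B-6” and “1_14”, “3_14” and “4_14” of “B-14”, with 3 replicates each and 18 libraries in all. All fruits came from hand-pollinated greenhouse plants of different individuals, neither line carried a transgene, and no treatment was given. The paper calls the tissue flesh, the labels of the deposited samples call it blade, and marker genes of either tissue could not be checked because only 156 identifiers, all from the tables and text of the paper, could be paired with a name.

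A young melon fruit is still growing by cell division and enlargement, and its flesh is green because its plastids hold chlorophyll. During ripening the plastids change, and in orange-fleshed lines they become chromoplasts that store β-carotene. Ethylene drives ripening in many melon types, and the AP2/ERF (ethylene response factor) family and the bHLH (basic helix-loop-helix) family are large groups of plant DNA-binding proteins that switch other genes on or off.

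The paper names 2 of the 143 genes, and both are listed with its transcription factors: ERF061 (MELO3C005747.2), of the AP2/ERF family, and bHLH35 (MELO3C017424.2), of the bHLH family. In citrus, a protein called CsERF061 is induced by ethylene and activates carotenoid genes. The other 141 genes carry only their MELO3C identifiers, none of which matched any of the 28628 melon genes in the RefSeq gene table. No function is given for them. None of the 143 genes was among the 42 genes of porphyrin and chlorophyll metabolism that the paper lists.

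Total counts per library lay between 20651703 and 22675606, so that 3 counts, taken as the floor of each library, corresponded to 0.132 to 0.145 CPM. The correlation of log2(CPM + 1) between replicates, over genes, which are not independent, lay between 0.983 and 0.997. Of genes with at least 20 counts summed over 2 replicates, between 29.0% and 65.7% differed between them beyond binomial sampling. Sampling alone would give 5%. Some libraries stood apart in these genes. Replicate 3 of “3_14” held the highest level of its group in 95 of the 143 genes, replicate 1 of “3_6” also in 95, replicate 3 of “4_6” in 82 and replicate 3 of “1_6” in 96.

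Together the 143 genes took 2.56%, 2.94% and 3.35% of all counts in the 3 libraries of “1_6”. In the same line they took 0.188%, 0.136% and 0.152% at 30 DAP and 0.0831%, 0.112% and 0.159% at 45 DAP. In “B-14” their share was 0.303%, 0.285% and 0.292% at 10 DAP, 0.0899%, 0.0928% and 0.183% at 30 DAP, and 0.112%, 0.0958% and 0.141% at 45 DAP. The young “B-14” libraries therefore lay between young “B-6” and all later libraries, with no overlap on either side, while the 4 later groups overlapped each other. The mean share in “1_6” was 18.6 times that in “3_6”, 25.0 times that in “4_6”, 10.1 times that in “1_14”, 24.2 times that in “3_14” and 25.4 times that in “4_14”. These ratios describe how the genes were chosen and are given without a test. In bulk tissue, fewer cells of a type and less RNA per cell cannot be told apart.

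**Figure D1:**
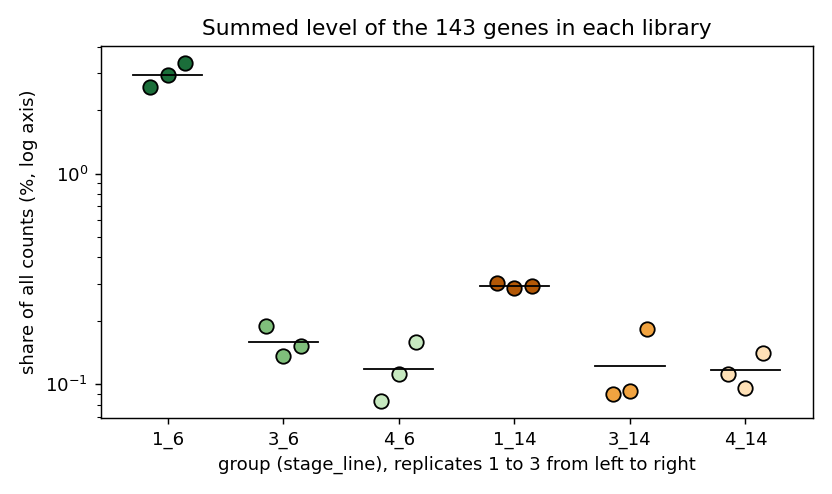
Share of all counts of a library (%, log axis) taken by the 143 genes, with 1 point per library and a line at the mean of the 3 libraries of each group. The libraries of “1_6” sit between 2.56% and 3.35%, those of “1_14” between 0.285% and 0.303%, and replicate 3 of “3_14” (0.183%) lies above the other replicates of its group.

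The genes differed widely in how strongly they were read. Their mean in “1_6” ran from 10.0 to 2177 CPM with a median of 81.0 CPM. A mean of at least 100 CPM was reached by 64 genes, of at least 1000 CPM by 6, and 22 genes stayed under 20 CPM. The 5 genes with the most counts made up 29.2% of the summed level in “1_6” and the leading 20 genes 58.6%. CPM does not take gene length into account, and lengths were not used here, so these levels do not rank the genes by transcript number.

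MELO3C024348.2 had the most counts, with 1728, 2284 and 2519 CPM in the 3 libraries of “1_6”. Its level was 435, 294 and 315 CPM in “1_14”, and it lay between 10.4 and 132 CPM in the 12 libraries of the later stages. MELO3C020811.2 followed with 1690, 2214 and 2525 CPM in “1_6” and 241, 236 and 202 CPM in “1_14”. For both genes all 3 libraries of “1_14” lay above all those of “4_6”, “3_14” and “4_14”, and for the second of them replicate 1 of “3_6” (218 CPM) reached into the range of “1_14”.

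The distance between “1_6” and the next group had a median of 8.996-fold over the 143 genes and ran from 6.02-fold to 117-fold. It was at least 10-fold for 60 genes and at least 20-fold for 18. The widest distance belonged to MELO3C026778.2, with 25.2, 34.5 and 42.3 CPM in “1_6” against 0.225, 0.371 and 0.274 CPM in “1_14” and no count in any library of “3_6”. MELO3C016824.2 followed at 59.6-fold, with 72.6, 79.8 and 106 CPM in “1_6” and 1.58, 0.695 and 2.06 CPM in “1_14”. Between the lowest “1_6” library and the highest of the 15 other libraries the gap was 6.06-fold at the median and between 1.44-fold and 68.1-fold over the genes.

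At the ratio limit, MELO3C006174.2 was included at 6.02-fold (101.6 CPM in “1_6”, 16.9 CPM in “4_14”), and MELO3C019599.2 was not, at 5.99-fold (308.8 CPM in “1_6”, 51.5 CPM in “3_6”). At the level limit, MELO3C017950.2 was included at 10.0 CPM and MELO3C009870.2 was not, at 9.41 CPM. MELO3C022716.2 had a mean of 14.4 CPM in “1_6” and a ratio of 99.4, but its lowest “1_6” library (0.181 CPM) was below the highest other library (0.387 CPM), which kept it out.

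The group closest to “1_6” was most often “1_14”, the other line at the same age. It came next for 101 genes (70.6%), “3_6” for 24, “4_6” for 7, “4_14” for 7 and “3_14” for 4. By definition the “1_14” mean of those 101 genes was above the means of the 4 later groups. For 76 of the 143 genes every “1_14” library lay above every later library. The same count was not made over all genes, so it is not read as a trait of these genes. The median level of the 143 genes was 6.47 CPM in “1_14”, against 1.77 CPM in “3_6”, 0.891 CPM in “4_6”, 1.67 CPM in “3_14” and 0.826 CPM in “4_14”. Single libraries moved the later medians, which were 0.829, 0.995 and 2.11 CPM in the 3 libraries of “3_14” and 0.413, 0.774 and 1.19 CPM in those of “4_6”, while those of “1_14” were 5.68, 6.58 and 5.99 CPM. In “1_14” 12 genes had a mean under 1 CPM, while there were 58 such genes in “3_6”, 76 in “4_6”, 59 in “3_14” and 74 in “4_14”.

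Some genes were at or below the floor of 3 counts in all 3 libraries of a group. This was so for 18 genes in “3_6”, 30 in “4_6”, 14 in “3_14” and 25 in “4_14”, and for 0 in “1_14”. There were 10 genes at the floor in all 4 later groups, and 35 in at least 1 group. No gene was at the floor in all 15 libraries outside “1_6”, so each of them was read above the floor in at least 1 of those libraries. The lowest mean was found in “4_6” for 56 genes, in “4_14” for 44, in “3_6” for 28, in “3_14” for 11 and in “1_14” for 4.

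**Figure D2:**
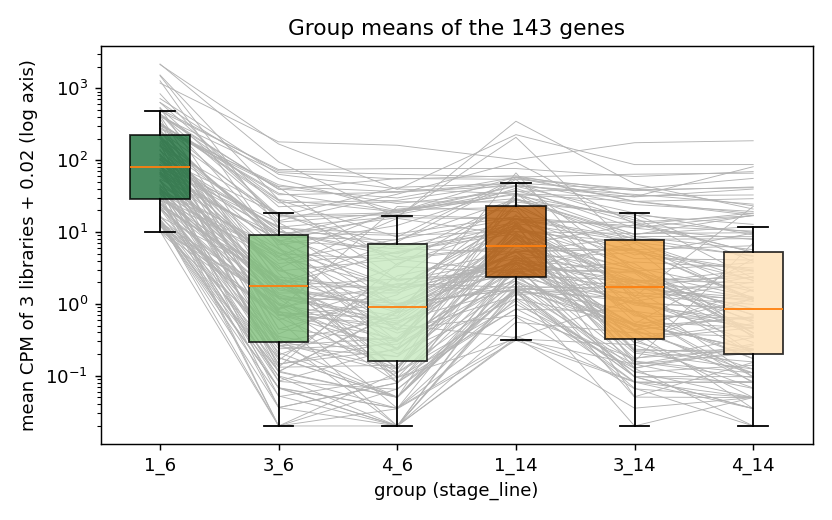
Mean CPM of 3 libraries plus 0.02 (log axis) for each of the 143 genes, drawn as 1 grey line per gene over the 6 groups, with boxes from the lower to the upper quartile, a line at the median and whiskers to the lowest and highest values within 1.5 times the box height. The medians are 81.0 CPM in “1_6” and 6.47 CPM in “1_14”, and between 0.826 and 1.77 CPM in the 4 later groups.

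The replicates of “1_6” also differed among themselves in these genes. Replicate 3 was the highest of the 3 libraries for 67.1% of the 143 genes, against 20.1% of the other 10387 genes with at least 10 CPM in “1_6”, where replicate 1 was most often the highest (57.9%). The coefficient of variation over the 3 “1_6” libraries had a median of 18.6% in the 143 genes and of 12.2% in the other genes. In “3_6” replicate 1 was highest for 66.4% of the 143 genes and 32.8% of the other genes, in “3_14” replicate 3 for 66.4% and 31.3%, and in “4_6” replicate 3 for 57.3% and 38.0%. In “1_14” the 3 replicates shared the first place, at 29.4%, 39.2% and 31.5% of the 143 genes. What set these libraries apart was not tested.

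**Figure D3:**
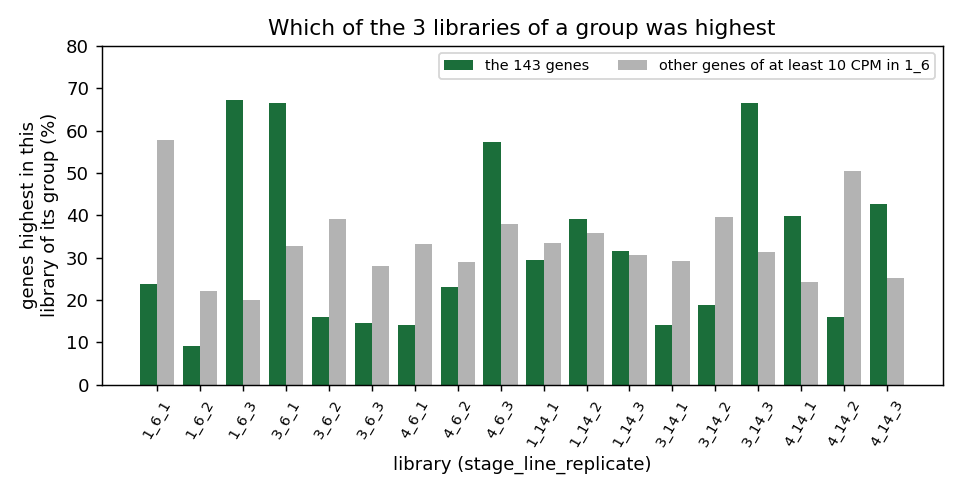
Percent of genes that were highest in a given library of their group, for the 143 genes (green) and for the 10387 other genes with at least 10 CPM in “1_6” (grey), with 1 pair of bars per library. Green bars above 55% stand at replicate 3 of “1_6”, replicate 1 of “3_6”, replicate 3 of “4_6” and replicate 3 of “3_14”, and no such bar is seen in “1_14” or “4_14”.

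ERF061 had 289, 297 and 365 CPM in “1_6” (317 ± 41.7, SD, n = 3). In “1_14” it had 44.5, 27.9 and 34.04 CPM (35.5 ± 8.42), so that its mean in young “B-6” was 8.94 times that in young “B-14”. All later libraries were at 1.97 CPM or less. In “B-6” it had 0.769, 0.629 and 0.680 CPM at 30 DAP and 0.0458, 0.182 and 0.441 CPM at 45 DAP, the last of which are 1, 4 and 10 counts. In “B-14” it had 1.06, 0.860 and 1.97 CPM at 30 DAP and 1.69, 0.535 and 0.664 CPM at 45 DAP. The order of its levels was thus “1_6”, then “1_14”, then the 4 later groups.

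Within “B-14”, whose libraries entered the rule only as an upper limit, ERF061 fell from 10 to 30 DAP (log2 −4.83, SE 0.35, adjusted p = 3.4e-05) and from 10 to 45 DAP (log2 −5.25, SE 0.43, adjusted p = 4.2e-05). These and all following p-values were calculated by the quasi-likelihood F test of edgeR and adjusted by Benjamini-Hochberg over all genes tested in a comparison. A gene was called changed at an adjusted p of at most 0.05 and a change of at least 2-fold. Among the later groups no comparison of ERF061 passed. Its log2 change was −0.43 (SE 0.55, adjusted p = 0.55) in “4_14” versus “3_14” and 0.86 (SE 0.39, adjusted p = 0.17) in “3_14” versus “3_6”. In “4_14” versus “4_6” it was 2.04 (SE 0.75, adjusted p = 0.11), and with all 18 libraries in 1 fit this value passed (adjusted p = 0.025). In “4_6” versus “3_6” it was −1.60 (SE 0.59, adjusted p = 0.051), and without replicate 3 of “4_6” it passed at −2.53 (adjusted p = 0.013).

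bHLH35 had 144, 140 and 190 CPM in “1_6” (158 ± 28, SD, n = 3). Its later levels in “B-6” were 27.2, 12.1 and 15.5 CPM at 30 DAP and 2.66, 3.82 and 6.53 CPM at 45 DAP. In “B-14” it had 8.696, 4.73 and 5.99 CPM at 10 DAP, 4.88, 6.51 and 26.4 CPM at 30 DAP, and 14.6, 15.2 and 25.3 CPM at 45 DAP. The 3 libraries of “4_14” lay above all those of “1_14” and of “4_6”, and replicate 3 of “3_14” lay far above the other replicates of its group.

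In “B-14”, bHLH35 rose from 10 to 45 DAP by 1.44 on the log2 scale (SE 0.31, adjusted p = 0.0047). In “B-6” it fell from 30 to 45 DAP (log2 −2.07, SE 0.41, adjusted p = 0.0040). At 45 DAP it was higher in “B-14” by 2.04 on the log2 scale (SE 0.37, adjusted p = 0.014), a call that was lost without replicate 2 of “4_6” (1.95, adjusted p = 0.065). The difference between the lines in the change from 30 to 45 DAP was 2.62 on the log2 scale (SE 0.85, adjusted p = 0.057), which did not pass. Without replicate 3 of “3_14” it passed at 3.79 (adjusted p = 0.0029). DESeq2 gave 2.61 (adjusted p = 0.0078), and with the replicate number as a block it was 2.98 (adjusted p = 0.024).

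The same library decided the other comparisons of bHLH35 at 30 DAP. In “3_14” versus “3_6” its log2 change was −0.57 (SE 0.66, adjusted p = 0.57) with all libraries and −1.73 (adjusted p = 0.014) without replicate 3 of “3_14”. In “4_14” versus “3_14” it was 0.53 (SE 0.64, adjusted p = 0.52) with all libraries and 1.69 (adjusted p = 0.0074) without it. Its change from 10 to 30 DAP in “B-14” was 0.90 (SE 0.65, adjusted p = 0.25) with all libraries and −0.24 (adjusted p = 0.51) without it, and neither passed.

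**Figure D4:**
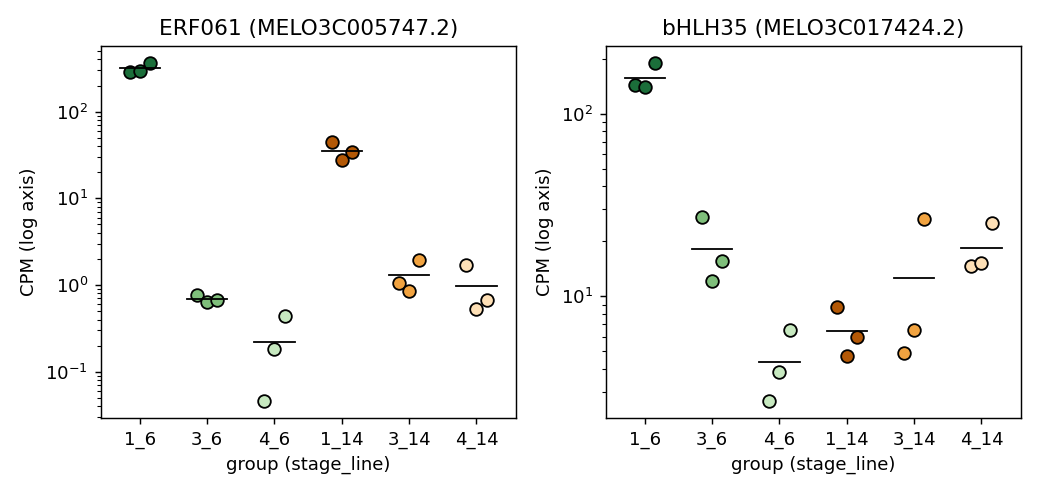
Level in CPM (log axis) of ERF061 and bHLH35 in each of the 18 libraries, with a line at the mean of each group. ERF061 is at 27.9 to 44.5 CPM in “1_14” and at 1.97 CPM or less in all later libraries, and bHLH35 is higher in “4_14” (14.6 to 25.3 CPM) than in “1_14” (4.73 to 8.696 CPM).

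The 39 other genes listed with the paper's transcription factors, a list that the study drew from these same samples, did not share 1 pattern. Their highest group was “1_6” for 10 genes, “1_14” for 10, “4_14” for 9, “3_6” for 5, “3_14” for 4 and “4_6” for 1. ERF106, a second AP2/ERF factor, was at 233.7 ± 44.9 CPM in “1_6” and at 186.0 ± 103 CPM in “1_14”. The young lines did not differ in it beyond their spread (log2 −0.44 in “1_14” versus “1_6”, SE 0.36, adjusted p = 0.34). Like ERF061 it fell in “B-14”, from 10 to 30 DAP (log2 −5.02, SE 0.44, adjusted p = 7.4e-05) and from 10 to 45 DAP (log2 −4.04, SE 0.41, adjusted p = 0.00012). The other ethylene-responsive factors of the list went both ways from 10 to 45 DAP in “B-14”. CRF6 (log2 −2.64, SE 0.47, adjusted p = 0.0017) and factor 1B (log2 −3.88, SE 0.53, adjusted p = 0.00048) fell. ERF039 (log2 1.60, SE 0.43, adjusted p = 0.012) and LEP (log2 6.53, SE 0.52, adjusted p = 3.7e-05) rose, LEP from a mean of 0.0905 CPM in “1_14”. The other bHLH factors of the list had lower levels. The highest group mean among bHLH69, bHLH71, bHLH112, bHLH149 and bHLH162 was 20.7 CPM, of bHLH71 in “3_6”. From 10 to 45 DAP in “B-14”, where bHLH35 rose, 1 of these 5 rose and 3 fell. bHLH162 rose (log2 1.77, SE 0.40, adjusted p = 0.0054), and bHLH69 (log2 −1.64, SE 0.26, adjusted p = 0.00092), bHLH71 (log2 −2.42, SE 0.67, adjusted p = 0.014) and bHLH149 (log2 −1.27, SE 0.34, adjusted p = 0.011) fell. bHLH112 did not pass (log2 0.09, SE 0.31, adjusted p = 0.80).

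The comparisons without any “1_6” library asked how the 143 genes behaved where the rule did not make them high. A gene enters a fit only with enough counts in at least 1 of its groups, so a gene that passes through its higher group alone had to differ. The counts below describe the genes that could be tested and support nothing further. The p-value of any single gene that enters in this way, here, above or below, is a description as well. In “3_14” versus “1_14” 137 of the 143 genes were tested, of which 82 fell, 2 rose and 53 did not pass. Over all 16514 genes tested, 23.5% fell and 18.7% rose. The median log2 change was −1.82 over the tested members and 0.00 over all genes, with a range of −8.57 to 1.74 in the members. Without each library in turn, between 72 and 105 were called, the most without replicate 3 of “3_14”. Of the 143 genes 78 had 10 or more counts in all 6 libraries. In a fit limited to such genes 36 of them fell and 1 rose, where 35.9% of all genes were called.

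MELO3C010782.2 had 23.2, 24.9 and 22.02 CPM in “1_14” and 0.552, 0.769 and 0.984 CPM in “3_14”, and fell by 4.98 on the log2 scale (SE 0.22, adjusted p = 5.7e-06). MELO3C004579.2, with 12.7, 15.6 and 14.9 CPM in “1_14” and 0.230, 0.181 and 0.375 CPM in “3_14”, fell by 5.81 (SE 0.28, adjusted p = 7.9e-06). MELO3C004579.2 entered this fit through “1_14” alone, so its p-value describes the fall without testing it. The libraries of these genes were far apart between 10 and 30 DAP. The 2 genes that rose stood at low levels. MELO3C022132.2 went from 0.315, 0.232 and 0.411 CPM to 0.875, 0.860 and 1.64 CPM (log2 1.74, SE 0.44, adjusted p = 0.010). This gene entered the fit through “3_14” alone, so the p-value describes its rise without testing it. MELO3C017706.2 went from 4.15, 1.53 and 3.34 CPM to 5.57, 6.06 and 9.14 CPM (log2 1.14, SE 0.39, adjusted p = 0.035). Its call was lost without replicate 2 of “3_14” (adjusted p = 0.054), replicate 3 of “3_14” (log2 0.89, adjusted p = 0.098), replicate 2 of “1_14” (log2 0.83) or replicate 3 of “1_14” (adjusted p = 0.077).

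In “4_14” versus “1_14” 137 were tested as well, of which 102 fell, 1 rose and 34 did not pass, where 25.7% of all genes tested fell and 19.4% rose. Their median log2 change was −2.82, against −0.01 over all genes, and their range was −8.19 to 1.44. In a fit limited to genes with 10 or more counts in all 6 libraries 70 were left, of which 40 fell and 1 rose, where 37.6% of all genes were called. The 1 gene that rose was bHLH35. Of the 39 other genes listed with the transcription factors, 37 were tested in this comparison, of which 15 fell and 15 rose. MELO3C026880.2 fell from 47.8, 53.7 and 60.3 CPM to 3.12, 3.53 and 4.51 CPM (log2 −3.93, SE 0.18, adjusted p = 4.2e-06). MELO3C004579.2 was at 1.03, 1.25 and 1.28 CPM in “4_14” (log2 −3.67, SE 0.19, adjusted p = 6.7e-06), and these libraries lay above those of “3_14”.

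Between 30 and 45 DAP genes changed in both directions. In “4_14” versus “3_14” 95 of the 143 genes were tested, of which 20 fell and 7 rose, where 11.4% of all genes tested fell and 7.83% rose. The median log2 change was −0.44 and the range −4.18 to 5.61. In “4_6” versus “3_6” 101 were tested, of which 38 fell and 9 rose, where 15.1% of all genes tested fell and 12.1% rose. Here the median was −0.67 and the range −5.69 to 4.98.

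MELO3C007093.2 changed most clearly in both lines. It had 175, 211 and 229 CPM in “1_6”, only 0.577, 0.920 and 0.952 CPM in “3_6”, and again 21.2, 24.1 and 22.7 CPM in “4_6”. In “B-14” it had 17.9, 20.6 and 19.4 CPM at 10 DAP, 1.47, 1.54 and 0.703 CPM at 30 DAP and 20.1, 28.2 and 19.6 CPM at 45 DAP. The gene was thus low at 30 DAP in all 6 libraries of both lines, and at 45 DAP it stood in “B-14” about where it had been at 10 DAP. From 30 to 45 DAP it rose by 4.79 on the log2 scale in “B-6” (SE 0.19, adjusted p = 1.3e-05) and by 4.17 in “B-14” (SE 0.29, adjusted p = 0.00014).

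A similar dip was seen in MELO3C007596.2. It had 16.9, 10.0 and 10.5 CPM in “1_14”, 0.230, 0.0452 and 0.141 CPM in “3_14” and 7.75, 3.61 and 9.77 CPM in “4_14”, a rise of 5.61 from 30 to 45 DAP (SE 0.61, adjusted p = 0.00061). The gene entered that fit through “4_14” alone, so the p-value describes the rise without testing it. MELO3C013665.2 went in “B-6” from 4.23, 4.99 and 4.49 CPM at 30 DAP to 12.4, 18.9 and 29.6 CPM at 45 DAP and rose by 2.15 (SE 0.30, adjusted p = 0.00092). All 3 were among 5 genes that rose in both lines, which were 55.6% of the 9 that rose in “B-6” and 71.4% of the 7 that rose in “B-14”. Over all genes tested these shares were 41.8% and 64.5%. The other 2, named after their values were seen, were MELO3C007378.2 and MELO3C017359.2. The 2 comparisons have no library in common.

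There were 12 genes that fell from 30 to 45 DAP in both lines, which were 31.6% of those that fell in “B-6” and 60% of those that fell in “B-14”. Over all genes tested these shares were 49.1% and 64.4%. MELO3C024012.2 was 1 of them. In “B-14” it went from 3.36, 4.70 and 2.77 CPM to 0.446, 0.402 and 0.285 CPM and fell by 3.24 (SE 0.32, adjusted p = 0.00044), and in “B-6” it fell by 4.19 (SE 0.50, adjusted p = 0.00048). It entered each fit through the 30 DAP group alone, so these p-values describe the falls without testing them. MELO3C016906.2 fell in “B-14” from 6.44, 7.24 and 8.25 CPM to 2.36, 2.14 and 1.76 CPM (log2 −1.81, SE 0.19, adjusted p = 0.00050). In “B-6”, MELO3C014512.2 fell from 4.90, 2.13 and 3.17 CPM to at most 0.0882 CPM (log2 −5.69, SE 0.54, adjusted p = 0.00018). MELO3C021626.2 fell from 3.94, 1.94 and 1.95 CPM to at most 0.132 CPM in the same line (log2 −4.55, SE 0.50, adjusted p = 0.00033). The level of these 2 genes in “4_6” was at or below the floor in every library, so the fitted values depend on the few counts there. Both entered the fit through “3_6” alone, so their p-values describe the fall without testing it.

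The lines were next compared at the same later stage. In “3_14” versus “3_6” 104 of the 143 genes were tested, of which 8 were lower in “B-14” and 0 higher. Of all genes tested 5.58% were called, 2.7% lower and 2.88% higher. With an unadjusted p of at most 0.05 there were 14 lower and 0 higher, and DESeq2 called 10 lower and 0 higher. The median log2 difference was −0.20 and the range −3.12 to 1.12. These counts moved with single libraries, most with replicate 3 of “3_14”. Without it 32 genes were lower and 3 higher in “B-14”, where 9.07% of all genes tested were called. Leaving out any of the other 5 libraries gave 3 or 4 genes. For these fits and for DESeq2 no share over all genes is given. Their counts are therefore not read as a trait of the 143 genes.

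MELO3C006338.2 had 11.3, 12.01 and 11.01 CPM in “3_6” and 5.52, 5.47 and 6.61 CPM in “3_14”, without overlap (log2 −1.003, SE 0.12, adjusted p = 0.0030). Its difference lay at the 2-fold limit and slipped under it with library size alone (−0.96) or without replicate 1 (−0.97) or 2 (−0.95) of “3_14” or replicate 2 of “3_6” (−0.99). With all 18 libraries in 1 fit its adjusted p was 0.14. MELO3C010736.2 had 4.66, 5.04 and 5.71 CPM in “3_6” and 1.98, 1.95 and 0.891 CPM in “3_14” (log2 −1.72, SE 0.29, adjusted p = 0.011), and without replicate 3 of “3_6” its adjusted p was 0.0501. With the replicate number as a block it was 0.052.

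At 45 DAP, in “4_14” versus “4_6”, 87 of the 143 genes were tested, of which 4 were lower and 3 higher in “B-14”. Of all genes tested 8.2% were called, 3.95% lower and 4.25% higher. The median log2 difference was −0.04 and the range −5.38 to 3.26. These counts changed with the libraries. Without replicate 1 of “4_6” 18 genes were lower and 4 higher, where 11% of all genes tested were called. Without replicate 2 of “4_6” 2 were lower and 0 higher (4.61% of all genes), and without replicate 3 of “4_6” 3 were lower and 3 higher (6.87%). Without replicate 1 or replicate 3 of “4_14” there were 2 in each direction (5.07% and 4.49%).

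MELO3C020007.2 was lower in “B-14” in every library, with 10.8, 16.2 and 20.6 CPM in “4_6” and 0.579, 0.714 and 0.712 CPM in “4_14” (log2 −4.60, SE 0.29, adjusted p = 0.00040). MELO3C026790.2 had 16.2, 19.5 and 20.02 CPM in “4_6” and 8.78, 9.28 and 9.16 CPM in “4_14” (log2 −1.08, SE 0.12, adjusted p = 0.0032). Beside bHLH35, the higher genes were MELO3C021626.2 and MELO3C017623.2. MELO3C021626.2 was at the floor in “4_6” and at 0.891, 0.580 and 1.80 CPM in “4_14” (log2 3.26, SE 0.62, adjusted p = 0.016). The gene entered this fit through “4_14” alone, so the p-value describes the difference without testing it. Its call was lost without replicate 2 of “4_6” (adjusted p = 0.070) and with all 18 libraries in 1 fit (adjusted p = 0.19). MELO3C017623.2 had 5.55, 2.64 and 2.07 CPM in “4_6” and 9.98, 11.9 and 16.4 CPM in “4_14” (log2 1.84, SE 0.40, adjusted p = 0.026). Its call was lost without replicate 1 (adjusted p = 0.055) or 3 (adjusted p = 0.088) of “4_14” and without replicate 2 (adjusted p = 0.099) or 3 (adjusted p = 0.053) of “4_6”.

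**Figure D5:**
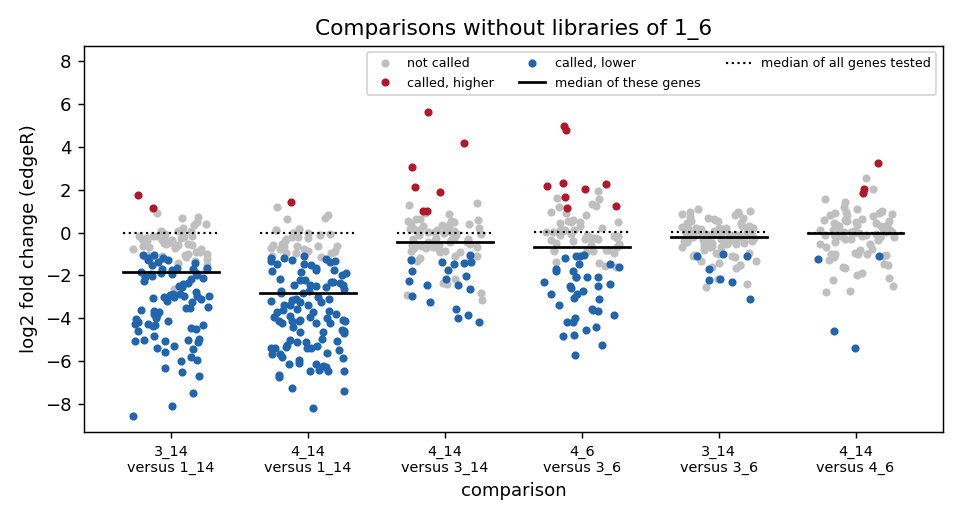
Fitted log2 fold change of each tested member of the 143 genes in 6 comparisons that use no library of “1_6”, in red or blue where the change was called and in grey where it was not, with a solid line at the median of these genes and a dotted line at the median of all genes tested. The solid line lies at −1.82 and −2.82 in the comparisons with “1_14”, at −0.44 and −0.67 from 30 to 45 DAP, and at −0.20 and −0.04 between the lines at 30 and 45 DAP.

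Whether the change from 30 to 45 DAP differed between the lines was tested directly as an interaction over the 12 later libraries. Of the 143 genes 111 were tested, and in 5 the change was higher in “B-14” and in 4 lower, where 7.76% of all genes tested were called, 3.38% higher and 4.38% lower. The median of the tested members was 0.33 on the log2 scale, against 0.01 over all genes. MELO3C017623.2 fell in “B-6” from 63.7, 24.8 and 36.9 CPM to the levels of “4_6” given above, and was at 9.57, 11.8 and 30.0 CPM in “3_14” and at like levels in “4_14” (interaction 3.19, SE 0.73, adjusted p = 0.016). MELO3C026790.2 stayed between 16.2 and 20.02 CPM in “3_6” and “4_6” and fell in “B-14” from 17.997, 16.0 and 21.1 CPM to under 10 CPM (interaction −1.14, SE 0.17, adjusted p = 0.0020). MELO3C006195.2 had 2.98, 8.74 and 34.7 CPM in “4_6” and at most 0.580 CPM in “4_14” (interaction −5.24, SE 1.21, adjusted p = 0.016). Without replicate 3 of “4_6” its value was −3.85 (adjusted p = 0.017).

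The count of 9 genes in this interaction moved with single libraries. It was 20 without replicate 3 of “3_14”, with 16 higher and 4 lower, where 10.3% of all genes tested were called. It was 19 without replicate 1 of “4_6”, with 4 higher and 15 lower, where 10.4% were called. It was 3, 4 and 4 without replicates 1, 2 and 3 of “3_6” (5.47%, 6.17% and 5.78% of all genes), and 5 without replicate 3 of “4_6” (7.13%), replicate 2 of “3_14” (6.03%) or replicate 3 of “4_14” (5.88%). MELO3C009421.2 lost its call without replicate 1 of “3_6” (interaction 1.10, adjusted p = 0.055).

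Over the 7 tests 122 of the 143 genes were called at least once and 21 never, where 60.9% of the 17060 genes tested at least once were called. Among genes tested in all 7, 65 of 81 members (80.2%) and 56.4% of all 14636 genes were called at least once. Of the 21, 16 had been tested in all 7. There were 4 genes with too few counts for any of the tests, which were thus read almost only in “1_6”. By the order of their identifiers 6 of the 143 genes stood next to another of them, in 3 pairs. Within a pair the levels differed. MELO3C009417.2 had a mean of 282.5 CPM in “1_6” and 36.7 CPM in “1_14”, and its neighbour MELO3C009418.2 had 386.2 CPM and 9.33 CPM. MELO3C022131.2 had 317.7 CPM in “1_6” and MELO3C022132.2 11.9 CPM, and MELO3C010497.2 had 103.6 CPM and MELO3C010498.2 25.4 CPM. These pairs were named after their values were seen, and whether their members share sequence, which could split reads between them, was not tested.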

How the data were processed

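Per the paper, flesh of 3 plants per line and stage was sampled, and the replicates are taken as separate plants. The authors used Trimmomatic on the paired-end reads and HISAT2 against the melon genome, and deposited counts without normalization, as whole numbers, for 22394 genes in 18 libraries. Program versions, the genome build, the counting program, its use of strand and whether it counted reads or pairs are not given in the sources used here. Line, stage and replicate were read from the labels. The 143 genes and all lists were chosen with earlier results of these data known, and 1 gene is not reported here.

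Levels are CPM on library totals. Fits used R 4.3.3 and edgeR 4.0.16 on all genes of a pair of groups (12 libraries for the interaction), with TMM factors, filterByExpr and the quasi-likelihood F test. Calls needed a Benjamini-Hochberg adjusted p of at most 0.05 over all genes tested and a log2 change of at least 1 in size, and these steps were tested on simulated data. The study's own threshold, an unadjusted p of at most 0.05 with the same change, was an alternative. Also tried were the replicate number as a block, leaving out each library, a fit over all 18 libraries, RLE factors, library size alone, other filters (any count, or at least 10 in each library) and DESeq2 1.42.0.

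Named were the 2 genes the paper names, the 2 unnamed genes with the most counts in “1_6” and in the next group (the same genes), the 2 with the widest ratio, the 2 nearest the limits, and in each comparison up to 2 that rose and 2 that fell with the smallest p among those whose libraries did not overlap. For the interaction, where libraries could overlap, the difference instead had to have the same sign in every set of libraries with the same replicate number. Deviations from the group mean went best with the same replicate number for all 3 numbers only in “4_14” and “3_14” (r = 0.145, 0.327 and 0.457 over 15612 genes). In “3_14” and “1_14” the values were also above 0 (r = 0.110, 0.00784 and 0.0957), with the same number best for 2 of them. Nothing in the labels says that a number marks a shared batch.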

Additional observations from a re-analysis of the deposited data

Results flagged for a closer look

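In the line by stage interaction, which sets the change from 30 to 45 DAP in “B-14” against that in “B-6”, 111 of the 143 genes were tested. Of these, 9 (8.11%) passed edgeR's quasi-likelihood test, close to the 7.76% of all genes tested that passed in either direction. Values above 0 mean a higher change in “B-14”. The log2 value was 3.19 for MELO3C017623.2, 2.11 for MELO3C020811.2, 2.07 for MELO3C010736.2 and 1.24 for MELO3C009421.2. It was −5.24 for MELO3C006195.2, −2.95 for MELO3C020007.2 and −1.14 for MELO3C026790.2. The remaining 2, named after their values were seen, were MELO3C022222.2 (1.01) and MELO3C015580.2 (−1.46).

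MELO3C020811.2, among the genes with the most counts, went in “B-6” from 218, 128 and 157 CPM to 30.7, 38.3 and 48.6 CPM, and in “B-14” from 53.02, 52.1 and 155 CPM to 80.4, 55.3 and 125 CPM. MELO3C010736.2 went in “B-6” from 4.66, 5.04 and 5.71 CPM to 0.458, 1.41 and 0.882 CPM, and in “B-14” from 1.98, 1.95 and 0.891 CPM to 0.713, 1.205 and 1.66 CPM. MELO3C009421.2 fell in “B-6” from 11.9, 9.10 and 9.74 CPM to 4.31, 5.32 and 3.79 CPM. MELO3C020007.2 was at 1.29, 1.04 and 6.66 CPM in “3_14”, so that replicate 3 stood apart there as well.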

How the results depend on the processing

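Of 557 values of named genes under the alternatives, 525 stayed on their side of the threshold, 20 lost and 12 gained a call, and 0 reversed. With at least 10 counts in every library, which removes genes that were low in 1 group, 37 genes were called in “3_14” and 41 in “4_14” against “1_14”, 10 between “4_14” and “3_14”, 23 between “4_6” and “3_6” and 4 between “3_14” and “3_6”. An unadjusted p gave 14 in “3_14” versus “3_6”, 21 in “4_14” versus “4_6” and 22 in the interaction, and DESeq2 gave 17 and 16 in the last 2. Over all genes tested, the unadjusted p gave 546 higher and 544 lower of 15501 in “3_14” versus “3_6”. It gave 911 and 835 of 15382 in “4_14” versus “4_6”, and 939 and 1007 of 16104 in the interaction. Counts given here or above without a share over all genes are not read as particular to the 143 genes. In “4_14” versus “4_6”, every gene with a count gave 11 and all 18 libraries in 1 fit gave 20. The cause of these moves was not tested. Without each library in turn the counts ran from 3 to 35 in “3_14” versus “3_6”, from 2 to 22 in “4_14” versus “4_6”, from 3 to 20 in the interaction, from 40 to 61 in “4_6” versus “3_6”, from 23 to 29 in “4_14” versus “3_14” and from 101 to 107 in “4_14” versus “1_14”. With the replicate number as a block, “3_14” versus “3_6” gave 3 genes, “4_14” versus “3_14” 30, “4_6” versus “3_6” 44, “4_14” versus “4_6” 8, the interaction 7, and “3_14” and “4_14” versus “1_14” gave 85 and 103. The numbers share no origin in the labels. In the block, bHLH35 passed in the interaction (2.98, adjusted p = 0.024 by edgeR) and MELO3C010736.2 did not pass in “3_14” versus “3_6” (adjusted p = 0.052), and no other call of a named gene changed. A ratio of at least 8 would leave 89 of the 143 genes and one of at least 5 would take in 198. A mean of at least 5 or 20 CPM gave 170 or 121, CPM scaled by TMM factors gave 173, and leaving out each library gave 127 to 152. Library size alone moved the median log2 change of all genes by at most 0.07. Below the floor of 3 counts, differences were not detectable at this depth.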
